A study of Mus musculus with 4 samples.

Results

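The genes described here are the classical cadherins and the non-clustered protocadherins, chosen by symbol alone: every gene named Cdh or Pcdh followed by a number (with Pcdh11x), which leaves out the clustered Pcdha, Pcdhb and Pcdhg genes. The rule found 35 genes of the 31053 in the count table. By structure they fell into 5 type I cadherins, 13 type II cadherins, 5 other cadherins, 4 delta-1 protocadherins, 5 delta-2 protocadherins and 3 other protocadherins. RNA was counted in single nuclei of the superior colliculus, the midbrain structure that receives retinal input, of C57BL/6J mice. There was 1 library from embryonic day 19 (E19, as the sample titles and the table of nuclei give it; the protocol text puts another abbreviation beside that day) and 1 each from postnatal days 4, 8 and 21 (P4, P8 and P21). The mice carried no stated transgene or treatment, each library pooled tissue of several animals, and their number and sex were not stated. A stage is therefore 1 library: differences between stages had no replicate check, were not tested, and are given with 95% exact Poisson intervals or log2 intervals that cover counting error only.

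Cadherins are calcium-dependent adhesion proteins of the cell surface. Classical cadherins bind each other across the gap between cells through their outermost extracellular repeat, and bind catenins, which tie them to actin, inside the cell. Type I cadherins such as N-cadherin are made by wide ranges of cells, while type II cadherins form a large family known for their patchwork expression over brain nuclei, layers and neuron types, including those of the visual system. Non-clustered protocadherins have a different extracellular build; delta-1 members carry a conserved motif that recruits a phosphatase, and several delta-2 members bind the actin-regulating WAVE complex.

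The adhesive difference between the families is visible in their coding bases. In type I cadherins the mature protein begins with 1 tryptophan that docks into the partner, in type II cadherins with 2, and T-cadherin (Cdh13), which is held by a lipid anchor and has no intracellular part, has none there. The first 16 codons of the mature protein are shown for the members on which the results below turn, read from GENCODE M21 transcripts on GRCm38 (mm10), with the TGG codons for tryptophan in capitals. Each stretch lies within 1 coding exon.
Cdh4, type I, chr2:179797560-179797607, plus strand: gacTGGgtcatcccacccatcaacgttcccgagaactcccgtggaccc
Cdh13, T-cadherin, chr8:118757416-118757463, plus strand: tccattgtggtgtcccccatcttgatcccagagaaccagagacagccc
Cdh7, type II, chr1:109994321-109994368, plus strand: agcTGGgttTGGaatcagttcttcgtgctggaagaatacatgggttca
Cdh20, type II, chr1:104934274-104934321, plus strand: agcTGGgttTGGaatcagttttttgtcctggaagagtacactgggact
Cdh12, type II, chr15:21237843-21237890, plus strand: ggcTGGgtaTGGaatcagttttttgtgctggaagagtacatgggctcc
Cdh18, type II, chr15:23173861-23173908, plus strand: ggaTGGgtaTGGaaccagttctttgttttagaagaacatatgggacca
Cdh22, type II, chr2:165180925-165180972, minus strand: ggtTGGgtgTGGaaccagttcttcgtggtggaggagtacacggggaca
Cdh9, type II, chr15:16778257-16778304, plus strand: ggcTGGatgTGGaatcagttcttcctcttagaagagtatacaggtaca
Cdh10, type II, chr15:18899751-18899798, plus strand: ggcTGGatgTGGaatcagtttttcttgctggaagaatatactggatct
Cdh8, type II, chr8:99400747-99400794, minus strand: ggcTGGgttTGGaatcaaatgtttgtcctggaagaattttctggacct
The type II members are close relatives over the first 100 codons of the mature protein: Cdh9 and Cdh10 shared 80% of residues, Cdh7 and Cdh20 81%, and Cdh12 and Cdh18 75%. Cdh4 and Cdh8, from different families, shared 36%.

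The 4 libraries held 2585, 2386, 2504 and 2249 nuclei in stage order and 19277512 to 31325079 unique molecular identifiers (UMIs, each standing for 1 captured RNA molecule), with a median of 6828 UMIs per nucleus at E19 and 11745 at P21. The authors' deposited annotation gave 9 classes and 35 subtypes, of which 13 were excitatory (EN1 to EN13) and 12 inhibitory (IN1 to IN12), with 7552 neurons among the 9724 nuclei. The defining neuron markers stood where the labels put them (in excitatory neurons Slc17a6 reached 176 to 285.8 CPM, UMIs per 1000000 UMIs of that class in that library, and in inhibitory neurons Gad1 reached 235.7 to 282.8 CPM). Elsewhere some did not: the astrocyte markers Slc1a3 and Gja1 averaged 1906 and 575.4 CPM in vascular leptomeningeal cells against 990.4 and 251.5 CPM in astrocytes, while Aqp4 averaged 448.7 CPM in astrocytes and 25.7 CPM in the leptomeningeal class. In the class labelled Epithelial Cell, Folr1 was at 0 CPM, Foxj1 at 0 to 7.39 CPM and Ttr at 0 to 103.5 CPM (median 1.82; up to 661.5 CPM in astrocytes), while the meningeal marker Col1a2 averaged 399.8 CPM and Gja1 792.5 CPM. The 3 neuron markers (Rbfox3, Snap25 and Syt1) stood in the non-neuronal classes at 1.51% to 43% of their neuronal level, so low levels of neuron-rich genes there cannot be told apart from free RNA. A total of 9 cell barcodes occurred in more than 1 library.

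Of the 35 genes, 29 are described with values and 6 (Cdh1, Cdh15, Cdh16, Cdh17, Cdh26 and Pcdh12) only briefly. Cdh15, Cdh16, Cdh17 and Cdh26, which include the cadherins of muscle, kidney and gut, gave 0, 11, 9 and 19 UMIs in all nuclei together. In the reference annotation 12 of the 35 genes overlap a gene on their own strand and 21 one on the opposite strand, and the sources used here do not say whether counting used strand. For comparison between genes the levels were put per 100 kb of gene, because nuclear counts include introns. On that scale Pcdh8, a gene of 4.54 kb, was first in neurons with 556.5 CPM per 100 kb. Pcdh9 had 472.7, Cdh2 194, Cdh18 135.6, Cdh12 43.2 and Cdh23 11.1 CPM per 100 kb. The place of Pcdh8 rests on the scaling: unscaled, it was at 25.25 CPM in neurons and Pcdh9 at 4147 CPM. Whether these counts rise with gene length was not checked. All other values below are CPM compared within a gene.

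Across neuron subtypes the members were patchy, and each subtype carried its own mix of type II cadherins. Of 25 members that reached 20 CPM in some subtype, 9 had a subtype at least 4-fold above the median of the 25 subtypes, beside 8.07% of all genes by the same rule. At 100 CPM it was 8 of 22 members and 11.3% of all genes. The 9 were 7 of the type II cadherins (Cdh6, Cdh7, Cdh9, Cdh12, Cdh18, Cdh20 and Cdh22, at 4.14-fold to 6.96-fold), Pcdh18 at 5.88-fold and Cdh23 at 65.7-fold. The member's highest subtype stood at a median of 2.92-fold over its median subtype, against 1.46-fold for all genes. Subtypes were made by clustering these same nuclei, so these are descriptions and not tests. The order of the subtypes recurred from library to library: the median Spearman correlation over the 6 pairs of libraries, each over 23 to 25 subtypes, was 0.79 for the 25 members and 0.21 for all 9092 genes at that level. Among genes that reached 100 CPM it was 0.81 for 22 members and 0.45 for 2943 genes. The correlation was at least 0.5 for 23 of the 25 members and for 19.31% of all genes; Pcdh1 (0.25) and Pcdh18 (0.44), both of low level, were below. Between 13 (EN12, IN10 and IN12) and 20 (IN1) members reached 100 CPM in a subtype, and between 4 (EN12) and 9 (IN1) of them were type II.

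**Figure D1:**
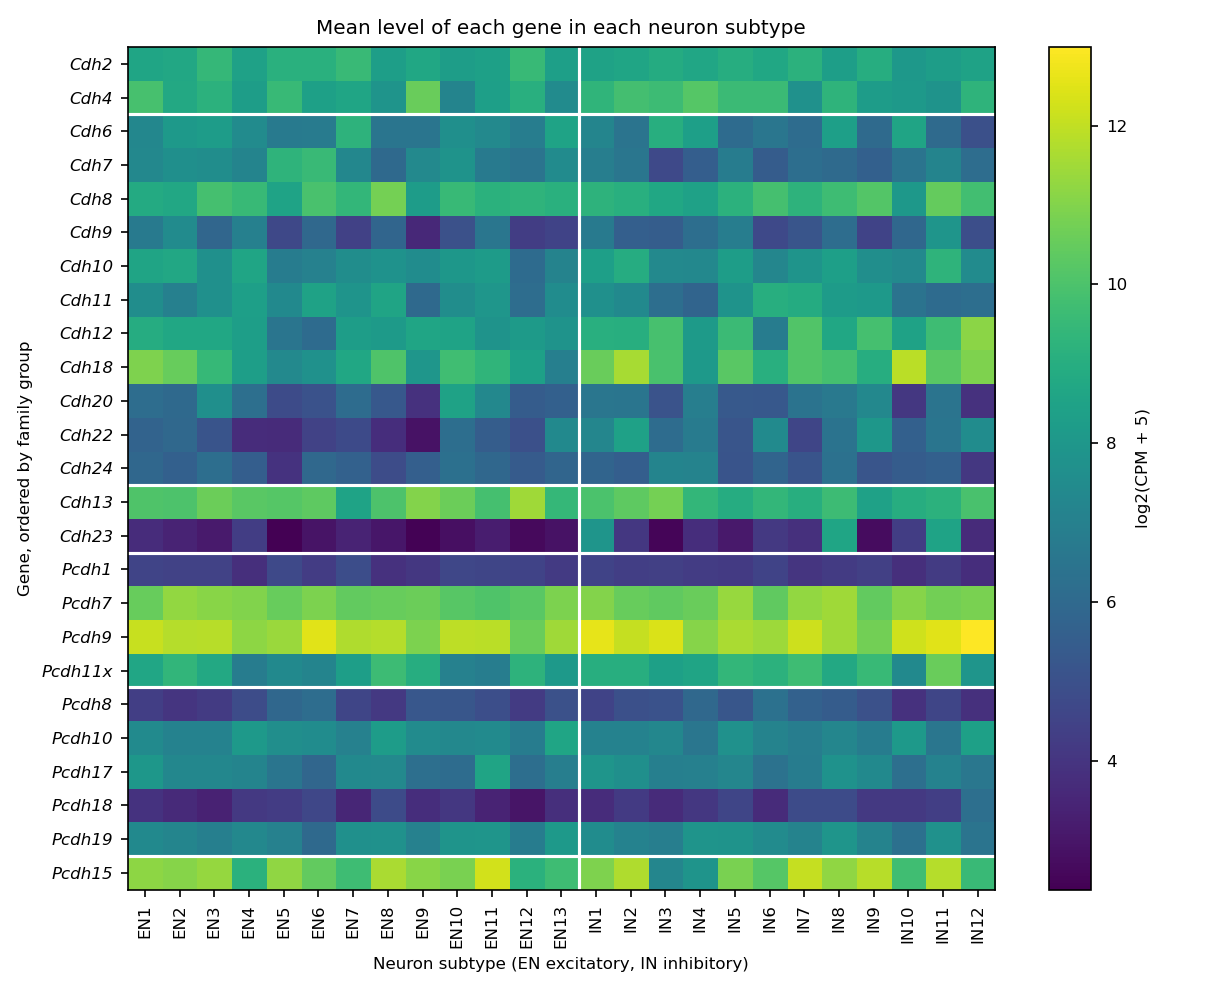
Mean level of 25 members (rows, grouped by family) in the 25 neuron subtypes (columns, excitatory then inhibitory), as log2 of CPM plus 5, averaged over libraries with at least 10 nuclei of the subtype. Cdh23 is bright mainly in IN1, IN8 and IN11, and Cdh7 is brightest in EN5 and EN6. Cdh22 is brightest in IN2 and IN9, with EN13 (164.3 CPM) its brightest excitatory column, while Cdh2 and Pcdh7 are nearly even.

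The type I cadherins differed in how evenly they were spread. Cdh2 (N-cadherin), the general neuronal cadherin, ranged only from 254.8 CPM in IN10 to 749.4 CPM in EN7, a 2.94-fold span. EN7 had 10 or more nuclei only at E19 and P4 and led in no library, and EN12 was next with a mean of 740.3 CPM over 4 libraries. Cdh4 (R-cadherin) spanned from 138.3 CPM in EN10 to 1525 CPM in EN9, with values in EN9 of 1545, 1533, 1869 and 1154 CPM in stage order. EN9 held the highest Cdh4 level in all 4 libraries.

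Among type II cadherins members peaked in different subtypes. Cdh7 was highest in EN6 (733.4, 677.8, 1051 and 543.6 CPM in stage order) and EN5 (818.2, 549, 636.5 and 435 CPM), and lowest in IN3, with a mean of 21.5 CPM. Cdh8 had its highest mean in EN8, at 1991, 1864, 1952 and 1266 CPM, and EN8 led at P4 and P8 only. IN11 led for Cdh8 at E19 (2251 CPM) and EN6 at P21 (1278 CPM). Cdh11, the mesenchymal or OB-cadherin, was highest in IN6, where its values ran 908.6, 536.9, 389.1 and 252.2 CPM, and in IN7 (296.4, 487.6, 711.3 and 416.8 CPM). The highest library of IN6 was E19 and that of IN7 was P8. Cdh6 was highest in EN7, with 726.2 CPM at E19 and 470.2 CPM at P4, the only libraries with 10 or more EN7 nuclei, followed by IN3 at 453.5, 646.8, 505.6 and 460.1 CPM.

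Cdh12 and Cdh18 lie near each other on chromosome 15 (Cdh12 at chr15:20449265-21589533 and Cdh18 at chr15:22549022-23474418, both on the plus strand), with Cdh6, Cdh9 and Cdh10 nearby. Cdh12 was highest in IN12, at 1817, 2036, 2324 and 2848 CPM, against a median subtype of 383.6 CPM. Cdh18 was highest in IN10 (3051, 2969, 4369 and 4757 CPM) and then IN2 (1312, 2764, 4227 and 4224 CPM, where 1 nucleus held 805 of the 8504 UMIs at P8), and lowest in EN13, at 64.8 to 164.5 CPM. In each library IN12 led for Cdh12 and IN10 for Cdh18. Cdh9 and Cdh10 both peaked in IN11: Cdh9 had 184.2, 323.6, 155.2 and 268.6 CPM there, and Cdh10 463.8, 756.4, 644.2 and 609.7 CPM. Pearson's r over the 25 subtypes was taken on the log2 of the mean levels with 5 CPM added. It was 0.72 for Cdh9 with Cdh10 and 0.59 for Cdh12 with Cdh18, while Cdh7 and Cdh12 gave -0.52. These are the extremes or near extremes of 231 member pairs (median 0.06), all points share the 4 libraries, and the values are descriptions. Type II pairs whose proteins belong to the same adhesive group known from other work (Cdh8 with Cdh11 and Cdh24, Cdh6 with Cdh9 and Cdh10, and Cdh7, Cdh12, Cdh18, Cdh20 and Cdh22 together) had a median r of 0.04 over 16 pairs, and pairs from different groups 0.10 over 39 pairs.

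Cdh20 and Cdh22 were narrower. Cdh20 was highest in EN10 (293.9, 398.7, 451.1 and 289.3 CPM) against a median subtype of 64 CPM. Cdh22 was highest in IN2 (405.3, 374.8, 360.4 and 219.7 CPM) and IN9 (a mean of 250.4 CPM), while EN9 held no Cdh22 UMI at E19, P4 or P21 and 10 CPM at P8. Cdh24 reached a mean of 137.4 CPM in IN3 and 10.4 CPM in EN5. Cdh20, Cdh22 and 8 further members of the 25 at 20 CPM (Cdh4, Cdh10, Cdh12, Cdh18, Cdh13, Pcdh9, Pcdh11x and Pcdh18) had the same leading subtype in all 4 libraries. The matching share of all genes was not computed, so this describes the named members only.

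Of the other cadherins, Cdh13 had a median subtype of 1003 CPM and was highest in EN12 (3265, 2462, 3132 and 2668 CPM), against 344.1 CPM in IN9. Cdh23, best known as a tip-link protein of inner-ear hair cells, had a median subtype of 5.9 CPM, and was high in IN8 (189.1, 626.1, 644.6 and 91.9 CPM), IN11 (341, 440.3, 452.8 and 239.9 CPM) and IN1 (98.5, 145.2, 562.7 and 138.8 CPM). In IN8 and IN1 the highest of the 4 libraries was P8. Its tip-link partner Pcdh15 was instead broad, with a median subtype of 1951 CPM, but spanned 33.6-fold, from 147.3 CPM in IN3 (152.3, 183, 146.1 and 107.9 CPM by stage) to 4956 CPM in EN11. EN11 had 10 or more nuclei only at E19, P4 and P8 (3311, 4417 and 7141 CPM), and it led only at P8. IN7 was the next highest for Pcdh15, with 3910, 5078, 4259 and 3743 CPM. Cdh23 also overlaps Vsir on the opposite strand.

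Of the delta-1 protocadherins, Pcdh7, Pcdh9 and Pcdh11x reached 100 CPM in 25 of 25 subtypes and Pcdh1 in 0. Pcdh7 ranged from 1073 CPM in EN11 to 2833 CPM in IN8 and Pcdh9 from 1516 CPM in EN12 to 8135 CPM in IN12. Pcdh11x, an X-linked delta-1 member, ranged from 107.9 CPM in EN4 to 1488 CPM in IN11. Among delta-2 protocadherins, the mean of Pcdh17 was highest in EN11 (376.7 CPM), of Pcdh10 in EN13 (383 CPM) and of Pcdh19, the X-linked epilepsy gene, in EN13 (263.1 CPM). That of Pcdh8 was highest in IN6 (139.3, 106.7, 30.8 and 27 CPM by stage). By library, EN13 led for Pcdh19 only at E19 (417.7 CPM, 21 nuclei) and for Pcdh10 only at P4 and P8. IN6 led for Pcdh8 only at E19 and P4. EN11 led for Pcdh17 at E19, P4 and P8 and had under 10 nuclei at P21. Pcdh18 stood at 119.4, 92.6, 47.7 and 29.2 CPM in IN12 from 7 to 18 UMIs per library, against a median subtype of 12.3 CPM. Pcdh20 reached no more than a mean of 19.4 CPM, in IN3.

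Excitatory and inhibitory neurons were compared within each library, and 9 of the 28 members tested differed: 2 were higher in excitatory and 7 in inhibitory neurons. The test was edgeR's quasi-likelihood test on UMIs summed per library and class with the library as a block, Benjamini-Hochberg adjusted over 15686 genes. It called 16.6% of all genes, 9.57% higher in excitatory and 7.04% in inhibitory neurons. At a difference of at least 2-fold 4 members were called (Cdh7 toward excitatory, and Cdh22, Cdh23 and Pcdh20 toward inhibitory neurons), beside 3.93% of all genes, 2.48% toward excitatory and 1.45% toward inhibitory neurons. The median absolute log2 ratio was 0.22 for the members and 0.15 for all genes tested. The n of 4 libraries is 4 ages, so the spread holds age as well as sampling, and nothing in the labels separates cultures or animals within a library. The classes came from clusters of the same nuclei; with classes made instead from transmitter-gene UMIs 10 members were called.

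Cdh7 stood at 181.8, 182.3, 285.6 and 194.4 CPM in excitatory neurons in stage order and at 59.2, 88.9, 72.4 and 98 CPM in inhibitory neurons. The groups did not overlap, and the log2 ratio was 1.46 (SE 0.15, adjusted p = 0.000581 by edgeR's quasi-likelihood test). Pcdh10, which has been tied to synapse elimination, was also higher in excitatory neurons in 4 of 4 libraries, by a log2 ratio of 0.39 (SE 0.07, adjusted p = 0.00855, edgeR), a difference well under 2-fold.

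Cdh22 was at 45.5, 41.9, 35.2 and 27 CPM in excitatory and 187.7, 148.3, 150 and 96.9 CPM in inhibitory neurons, so that every inhibitory value lay above every excitatory one. Its log2 ratio of excitatory over inhibitory was -1.90 (SE 0.06, adjusted p = 9.11e-07, edgeR). Cdh23 was at 11.3, 6.45, 5.46 and 1.03 CPM in excitatory and 64.9, 116, 111.3 and 34.5 CPM in inhibitory neurons. Its log2 ratio of -3.77 (SE 0.28, adjusted p = 0.000103, edgeR) was the largest among the members. Pcdh20, at 1.99, 2.28, 1.36 and 2.4 CPM against 6.21, 3.91, 9.29 and 11.5 CPM, was low in both classes but also higher in inhibitory neurons in 4 of 4 libraries (log2 ratio -1.87, SE 0.28, adjusted p = 0.00308, edgeR).

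Cdh12 was at 306.5, 348.8, 321.3 and 462.5 CPM in excitatory and 449.4, 544, 694.7 and 812.6 CPM in inhibitory neurons. The log2 ratio was -0.73 (SE 0.09, adjusted p = 0.00103, edgeR), higher in inhibitory neurons in every library. Smaller differences toward inhibitory neurons, also in 4 of 4 libraries, were called for Pcdh18 (log2 ratio -0.41, adjusted p = 0.0195, edgeR), Cdh24 (-0.34, adjusted p = 0.037) and Pcdh11x (-0.33, adjusted p = 0.0262). These last calls were weak: DESeq2 gave adjusted p = 0.113 for Pcdh18 and 0.0681 for Cdh24, and without the E19 library edgeR gave 0.0801 for Pcdh18, 0.0991 for Cdh24 and 0.0907 for Pcdh11x. They were likewise lost without P4 (Pcdh18, 0.0839) or P8 (Pcdh18 0.0543, Cdh24 0.141, Pcdh11x 0.109), and for Cdh24 without P21 (0.0554).

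Cdh18 and Cdh13 did not pass although the classes lay up to 1.30 and 1.10 apart on the log2 scale in single libraries. For Cdh18 the excitatory over inhibitory log2 ratio was 0.00, -0.39, -1.30 and -0.64 in stage order (fitted -0.53, SE 0.17, adjusted p = 0.0717, edgeR). For Cdh13 it was -0.22, 0.05, 0.81 and 1.10 (fitted 0.49, adjusted p = 0.139, edgeR). The class totals were thus near each other at E19 and apart at P8 and P21 for both genes, in opposite directions. With 1 library per stage this dependence on age was not tested. With subtypes given the same weight, the excitatory log2 ratio from P4 to P8 went from -0.46 to 0.13 for Cdh18 and from 0.71 to 0.35 for Cdh13. The inhibitory ratio stayed at 0.45 for Cdh18 and went from -0.05 to 0.01 for Cdh13. The part of the subtype mix in the class difference was not tested. Without the E19 library edgeR called both (adjusted p = 0.0291 for Cdh18 and 0.0482 for Cdh13), as it did with no filter on low counts (0.00269 and 0.013). Cdh2 (log2 ratio 0.20, adjusted p = 0.0605, edgeR) and Cdh4 (-0.20, adjusted p = 0.0716) fell short as well.

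**Figure D2:**
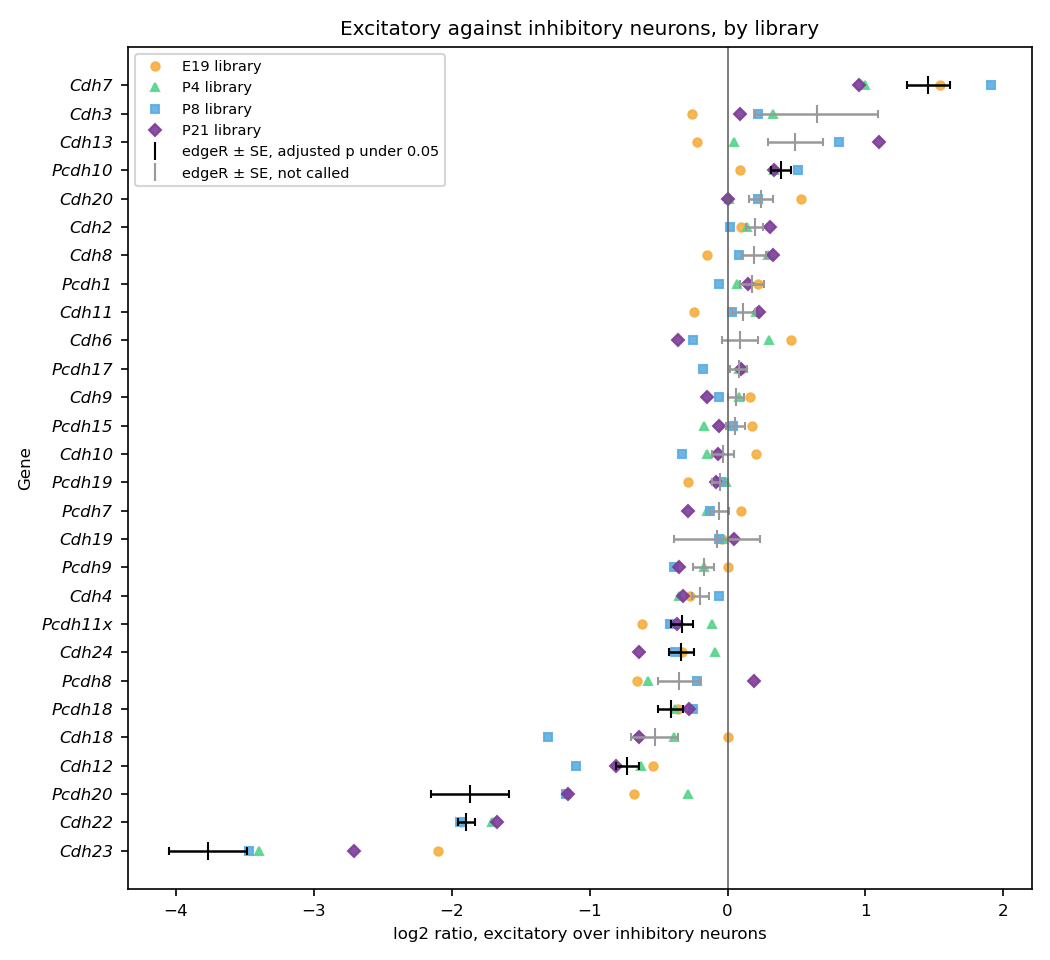
Log2 ratio of excitatory over inhibitory CPM (5 CPM added) for the 28 members tested, with 1 point per library coloured by stage and the edgeR estimate with its SE as a bar. Cdh7 lies right of 0 in all 4 libraries, Cdh22, Cdh23, Pcdh20 and Cdh12 left of 0, and the points of Cdh13 and Cdh18 spread apart by stage.

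Between E19 and P21 the members' class totals mostly stayed within 2-fold, and those past it were mostly lower at P21. Both also held for all genes. In excitatory neurons 22 members reached 20 CPM at 1 of these stages; 0 were at least 2-fold higher at P21 and 3 were lower (Cdh24, Pcdh8 and Pcdh17), where 5.35% of all genes were higher and 10.7% lower. In inhibitory neurons 1 of 24 was higher (Cdh18) and 5 were lower (Cdh24, Cdh13, Pcdh8, Pcdh17 and Pcdh18), where 5.83% of all genes were higher and 11.3% lower. The median log2 ratio of P21 over E19 was -0.34 for the members and -0.06 for all genes in excitatory neurons, and -0.48 and -0.04 in inhibitory neurons. A median-of-ratios scaling moved the medians of all genes by 0.12 and 0.11 on the log2 scale. It made the inhibitory split 2 higher (Cdh18 and Cdh20) and 4 lower (Cdh13, Pcdh8, Pcdh17 and Pcdh18), where 7.20% of all genes were then higher and 9.78% lower.

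Neither single step up to P8 held a member past 2-fold, but smaller differences added up over the steps. Excitatory Pcdh17 was at 276, 204.2 and 117.2 CPM at E19, P4 and P8. Inhibitory Cdh18 was at 837.2, 1296 and 1772 CPM at those stages. From E19 to P4, 0 members passed 2-fold in either neuron class, where 0.472% of all genes were higher and 0.701% lower in excitatory and 0.436% and 0.582% in inhibitory neurons. From P4 to P8 there were again 0 (0.361% and 0.832% of all genes in excitatory, 0.136% and 0.382% in inhibitory neurons). From P8 to P21 Cdh24 was lower in excitatory neurons (48.3 to 19.8 CPM; 2.15% of all genes were higher and 3.20% lower), and with the median-of-ratios scaling Cdh18 was also past 2-fold, higher. Cdh23 was lower in inhibitory neurons, from 111.3 CPM at P8 to 34.5 CPM at P21 (log2 ratio -1.56, 95% interval -1.70 to -1.41; 2.62% of all genes were higher and 3.28% lower).

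Delta-2 protocadherins were the family with the lowest median ratio. Of the 5, 4 reached the floor in excitatory neurons with a median log2 ratio of -0.88 and 5 in inhibitory neurons with -1.39, against medians of -0.08 and -0.01 for type II and 0.21 and 0.05 for delta-1 members. Pcdh17, which acts at presynaptic terminals, was at 276, 204.2, 117.2 and 102.6 CPM in excitatory neurons in stage order, lower at each later stage (E19 interval 266.5 to 285.8 CPM, P21 interval 97.4 to 107.9 CPM). In inhibitory neurons it was at 257.5, 192.2, 133.7 and 95.3 CPM. Both classes thus ended at well under their E19 level, with a log2 ratio of -1.39 in each.

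Pcdh8, which is induced by neuronal activity, was at 33.8, 18.8, 16.6 and 14 CPM in excitatory and 56.4, 30.7, 20.1 and 11.7 CPM in inhibitory neurons, a log2 ratio of -1.03 and -1.88. Pcdh18 was at 22.5, 15.3, 12.9 and 5.4 CPM in inhibitory neurons. Pcdh19 was at 170.7, 189.1, 157.2 and 100.8 CPM in excitatory neurons and 209.5, 190.7, 163.2 and 106.4 CPM in inhibitory ones. Pcdh10 was at 203.1, 180.7, 202.6 and 133 CPM and at 190.2, 141.4, 141.1 and 104.2 CPM. The E19 value of Pcdh10 and of Pcdh19 was thus above the P21 value in both classes, by under 2-fold.

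Among type II cadherins Cdh12, Cdh18 and Cdh20 were higher at P21 than at E19 in both neuron classes. Cdh18 was at 837.2, 1296, 1772 and 2184 CPM in inhibitory neurons, higher at each later stage (log2 ratio 1.38, 95% interval 1.33 to 1.42). In excitatory neurons it was at 838.2, 987.8, 718.3 and 1404 CPM (0.74, 0.71 to 0.78), with P8 the lowest library of the class total. The lower P8 value did not hold with 12 excitatory subtypes given the same weight: the log2 ratio from P4 to P8 was then 0.13 in place of -0.46. Cdh12, given above, had log2 ratios of 0.59 in excitatory and 0.85 in inhibitory neurons. Cdh20 was at 71.9, 78.5, 84.4 and 96.3 CPM in excitatory and 48.1, 78, 71.9 and 96.4 CPM in inhibitory neurons (log2 ratio 0.40 and 0.93). Cdh24, by contrast, was at 58.5, 63.3, 48.3 and 19.8 CPM and at 74.7, 67.9, 64.3 and 33.7 CPM, with P21 the lowest library of each class. Cdh11 went the same way in inhibitory neurons, from 242.7 CPM at E19 to 137.9 CPM at P21.

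For other type II members the E19 and P21 class totals were within 2-fold of each other. Cdh8 was at 612, 831, 727.5 and 619.1 CPM in excitatory and 681, 680.1, 689.8 and 490.9 CPM in inhibitory neurons. Cdh10 stayed within 240 to 314.8 CPM and 270.6 to 312.4 CPM. Cdh6 was at 231.4, 232.3, 173.3 and 128.4 CPM in excitatory neurons and 166.4, 187.9, 207.5 and 165.8 CPM in inhibitory ones, and Cdh9 was highest at E19 in both classes (106.6 and 94.6 CPM) and between 62.2 and 77.7 CPM afterwards.

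Cdh13 took different courses in the classes. It was at 1304, 988.8, 951.8 and 514.2 CPM in inhibitory neurons (log2 ratio -1.33, 95% interval -1.38 to -1.28) and at 1122, 1021, 1673 and 1107 CPM in excitatory ones (-0.02, -0.05 to 0.01). Of the type I members, Cdh2 was at 520.6, 445.5, 417.4 and 407.4 CPM in excitatory and 486.3, 403.6, 411.5 and 328.7 CPM in inhibitory neurons, and Cdh4 at 640, 565.1, 770.8 and 437.3 CPM and 773.1, 721.6, 804.9 and 546 CPM. Of the broad protocadherins, Pcdh9 was at 3406, 4245, 3397 and 4174 CPM and 3408, 4778, 4455 and 5313 CPM, Pcdh7 at 1472 to 1854 CPM and 1730 to 1977 CPM, Pcdh11x at 318.6 to 465.6 CPM and 477.7 to 622.6 CPM, and Pcdh15 at 1680 to 2327 CPM and 1746 to 2264 CPM. Pcdh1, a delta-1 member of epithelia and vessels, stayed at 13 to 18.7 CPM and 13.5 to 17.5 CPM.

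**Figure D3:**
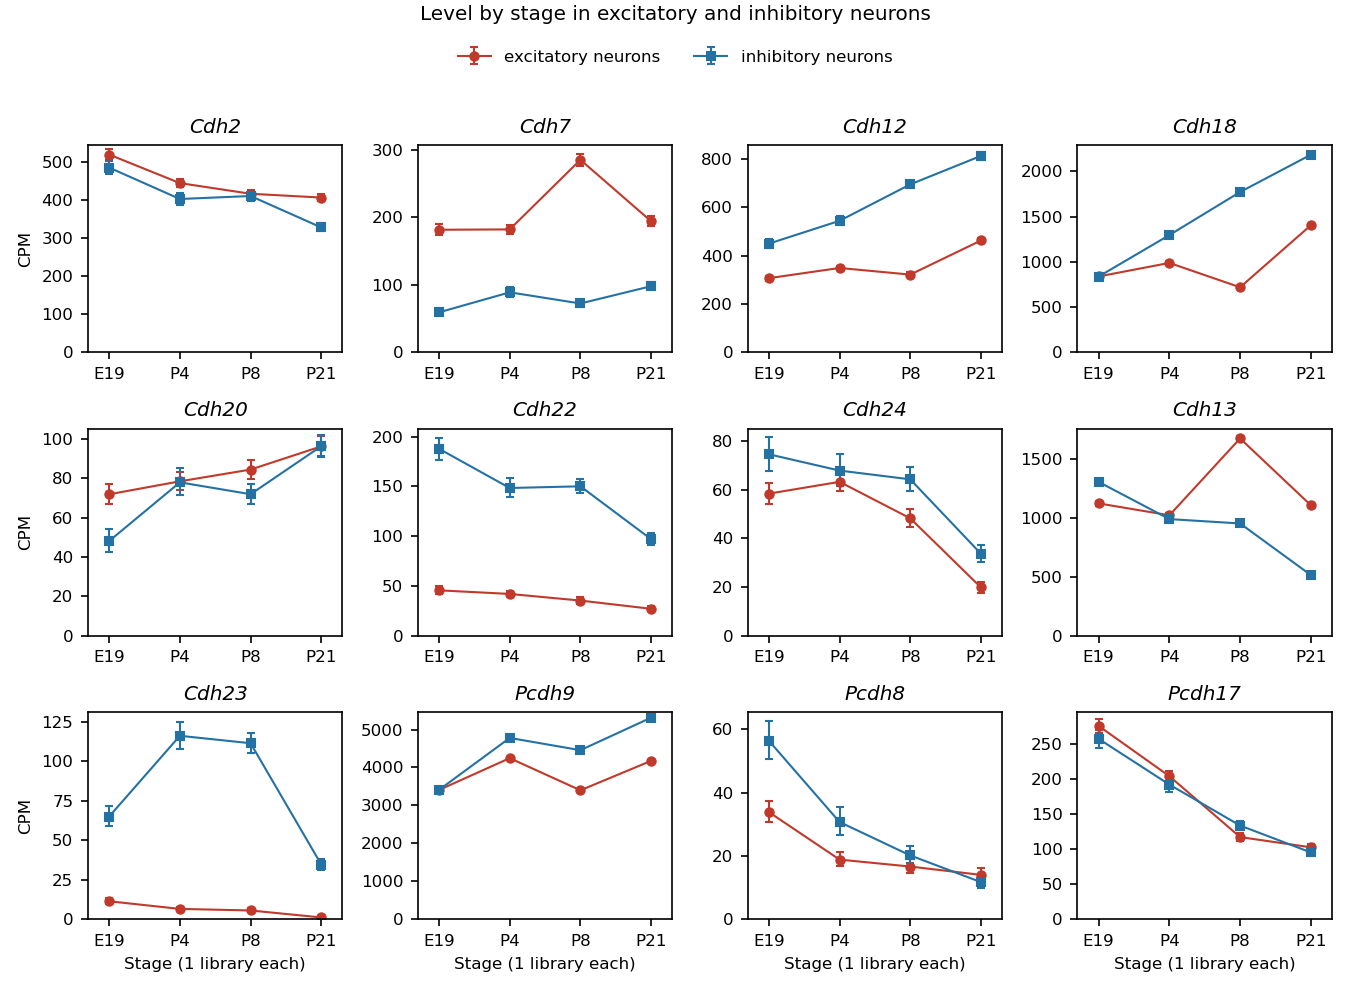
Level of 12 members by stage in excitatory and inhibitory neurons, in CPM with 95% exact Poisson bars that cover counting error only, 1 library per stage. Cdh18 in inhibitory neurons reaches 2184 CPM at P21, Pcdh17 and Pcdh8 are lowest at P21 in both classes, and Cdh13 separates by class after P4.

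A class total can move because its subtypes take other shares of the nuclei, so the P21 over E19 ratio was also taken within each of the 23 subtypes (11 excitatory and 12 inhibitory) that had at least 10 nuclei at both stages. Cdh18 was higher at P21 in 22 of 23 subtypes, with a median log2 ratio of 1.51. The highest was IN9 (71.4, 242.6, 390.7 and 1293 CPM, log2 ratio 4.09) and the only subtype below 0 was EN13 (-0.09). Cdh12 was higher in 21 of 23 (median 1.11, up to 3.39 in EN5), Pcdh9 in 21 (0.68), Cdh10 in 20 (0.52), and Cdh20 and Cdh7 in 17 each (0.88 and 0.59). Cdh7 was higher in 12 of 12 inhibitory subtypes and in 5 of 11 excitatory ones.

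In the other direction, Cdh2 was lower at P21 in 23 of 23 subtypes (median log2 ratio -0.53). Pcdh8 (-1.71), Cdh24 (-1.46) and Pcdh17 (-0.94) were each lower in 22 of 23, Pcdh19 in 21 (-0.93), Pcdh18 in 20 (-1.46), and Pcdh10 and Cdh13 in 19 each (-0.86 and -0.68). The subtypes of 1 library share its preparation and depth, so these counts are not independent repeats. Cdh4 and Cdh20 varied widely between subtypes, Cdh4 from -3.66 in IN9 to 1.68 in IN3 and Cdh20 from -2.36 in EN13 to 3.76 in EN12, where it had 0 UMIs at E19 and 77 at P21.

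Weighting the subtypes alike in the class total moved some members. In excitatory neurons the log2 ratio of P21 over E19 went from 0.74 to 1.33 for Cdh18, from 0.59 to 1.17 for Cdh12, from -0.08 to 0.56 for Cdh10 and from -1.39 to -0.90 for Pcdh17. In inhibitory neurons it went from 0.68 to 1.15 for Cdh7 and from 0.85 to 0.53 for Cdh12. Cdh9 went from -0.73 to 0.01 in excitatory and from -0.42 to 0.51 in inhibitory neurons, so that its lower class totals at P21 did not appear within subtypes on average. The excitatory members past 2-fold then became 2 higher (Cdh12 and Cdh18) and 3 lower (Cdh24, Pcdh8 and Pcdh18), where 6.0% of all genes were higher and 11.5% lower. The inhibitory ones became 3 higher (Cdh7, Cdh18 and Cdh20) and 5 lower (Cdh24, Cdh13, Pcdh8, Pcdh17 and Pcdh18), where 6.92% of all genes were higher and 12.4% lower.

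**Figure D4:**
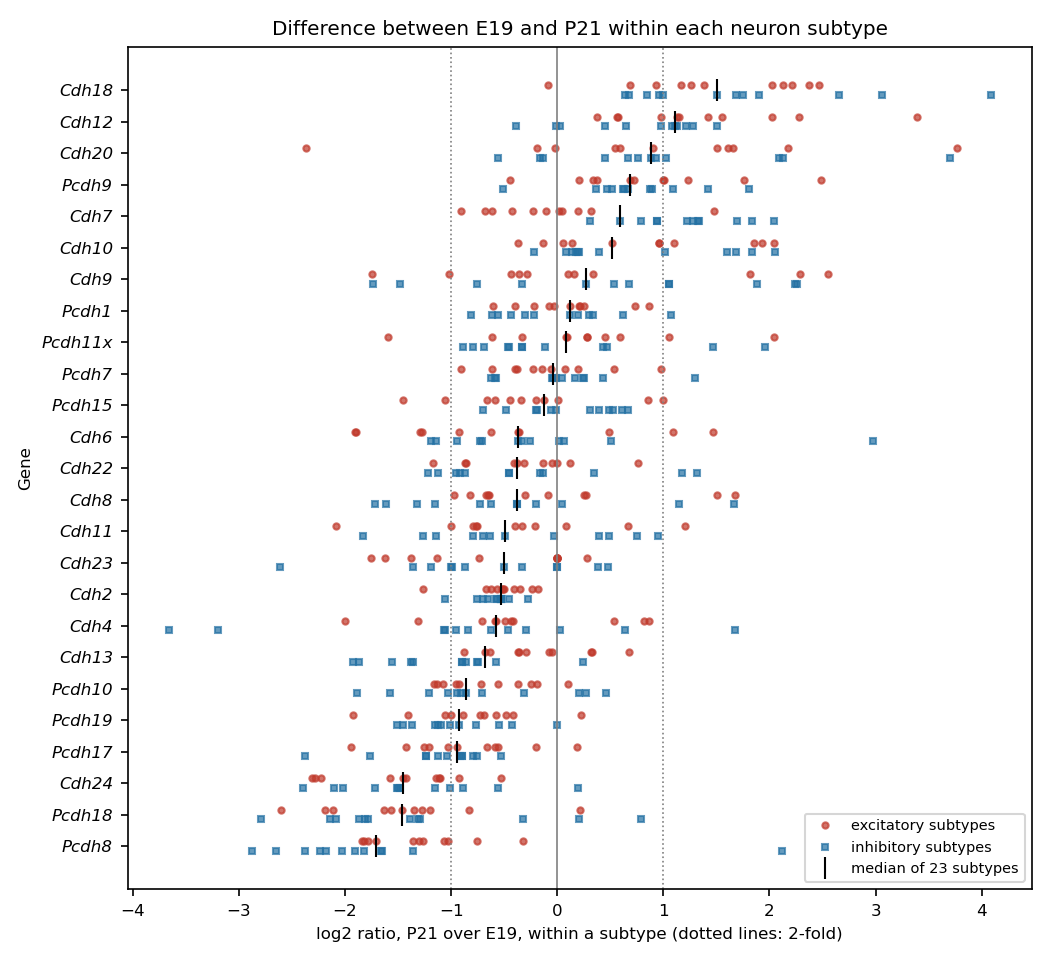
Log2 ratio of P21 over E19 CPM (5 CPM added) of each member within each of 23 neuron subtypes, 1 point per subtype coloured by class, with the median as a bar. For Cdh18 22 of 23 points lie above 0, for Cdh2 all 23 lie below, and Cdh4 spreads from -3.66 to 1.68.

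The proteins that work with the members were read from lists of partner genes. Between excitatory and inhibitory neurons, edgeR's quasi-likelihood test (Benjamini-Hochberg adjusted) called 5 of 12 cadherin partners tested, beside the 16.6% of all genes given above: the catenins Ctnnd2 (log2 ratio 0.29, adjusted p = 0.00881) and Arvcf (0.24, adjusted p = 0.0144), the actin linkers Vcl (0.54, adjusted p = 0.00104) and Afdn (0.18, adjusted p = 0.0439) toward excitatory neurons, and the catenin relative Pkp4 (-0.34, adjusted p = 0.0341) toward inhibitory neurons. Of 12 protocadherin partners 2 were called, near the share of all genes: Wasf2 of the WAVE complex was higher in excitatory neurons (0.35, adjusted p = 0.00932, edgeR) and the phosphatase Ppp1cc in inhibitory neurons (-0.22, adjusted p = 0.0424). Of 14 further cadherin superfamily genes tested 2 were called, again near that share. The calsyntenin Clstn2 was higher in excitatory neurons (0.52, adjusted p = 0.00102, edgeR). Fat4, a giant cadherin that binds Dchs1, was higher in inhibitory neurons, at 80.1, 55.5, 83.5 and 38.9 CPM in excitatory and 188, 155.6, 231.7 and 127.2 CPM in inhibitory neurons (-1.42, SE 0.07, adjusted p = 1.1e-05, edgeR). Fat4 lay higher in the inhibitory class in every library, as Cdh22 did.

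Over stages the partner lists held few genes past 2-fold, beside 10.7% of all genes lower in excitatory and 11.3% in inhibitory neurons. Past 2-fold lower from E19 to P21 in excitatory neurons were 1 of 10 cadherin partners (Jup, plakoglobin, 27 to 5 CPM, log2 ratio -1.68), 1 of 12 protocadherin partners (Ppp1ca, a phosphatase, 35.6 to 8.49 CPM, -1.59) and 1 of 10 superfamily genes (Dchs1, 56.9 to 9.86 CPM, -2.06). No listed gene was 2-fold higher in either class. In inhibitory neurons Jup (-2.15), Ppp1ca (-1.82) and Dchs1 (-1.78) were again past 2-fold, together with Ctnnb1, beta-catenin (140.2 to 61.2 CPM, -1.13). The list medians were -0.31, -0.23 and -0.14 in excitatory and -0.34, -0.29 and -0.20 in inhibitory neurons.

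The class with the highest level was neuronal for some members and non-neuronal for others. With levels averaged over libraries with at least 20 nuclei of a class, 30 members reached 20 CPM in some class; inhibitory neurons led for 7, endothelial cells for 6, excitatory neurons and the oligodendrocyte lineage for 4 each, astrocytes and the class labelled Epithelial Cell for 3 each, dividing cells for 2 and vascular leptomeningeal cells for 1. By the same rule inhibitory neurons led for 5.61% of all 11686 genes, endothelial cells for 22.3%, excitatory neurons for 6.88% and the oligodendrocyte lineage for 6.97%. Astrocytes led for 7.34%, the class labelled Epithelial Cell for 10.5%, dividing cells for 9.78% and vascular leptomeningeal cells for 8.63%. The member counts of endothelial cells and of the class labelled Epithelial Cell were near these shares. For 6 of the 30 members the leading class stood less than 1.1-fold above the next, as for Cdh23 in inhibitory neurons and microglia (1.00-fold), Cdh9 in the neuron classes (1.02-fold) and Cdh10 in astrocytes and the oligodendrocyte lineage (1.06-fold). Endothelial cells met that number in P4 alone, with 22 nuclei. There Cdh5 (VE-cadherin), the adhesion protein of vessel junctions, was at 244.4 CPM, against means of 118.4 CPM in vascular leptomeningeal cells and 0.37 CPM in excitatory neurons. Endothelial Cdh5 was at 279.4, 211.2 and 108.5 CPM in the E19, P8 and P21 libraries, from 12 to 15 nuclei. Pcdh12, also an endothelial protocadherin, gave 47 UMIs in all and was at 39.3 CPM in endothelial cells at P4. Pcdh1 was at 135.3 CPM and Cdh2 at 973.4 CPM in the same nuclei.

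In the class labelled Epithelial Cell, Cdh1 (E-cadherin) averaged 412.5 CPM, 15.5-fold above the next class, vascular leptomeningeal cells. Its values were 403.1 CPM at P8 and 422 CPM at P21, the libraries with at least 20 such nuclei. Cdh11 averaged 1275 CPM there, 4.23-fold above endothelial cells. As given above, the ependymal and choroid markers Foxj1 and Folr1 were at or near 0 in this class, Ttr was not higher than in astrocytes and meningeal collagen was present, so the class is called by its label only.

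In astrocytes several classical cadherins stood at different levels in the E19 and P21 libraries. Of 23 members at the floor, 3 were at least 2-fold higher at P21 (Cdh19, Cdh20 and Cdh22) and 8 lower (Cdh3, Cdh4, Cdh6, Cdh8, Cdh24, Cdh13, Pcdh8 and Pcdh18), where 8.60% of all genes were higher and 18.2% lower. The median-of-ratios scaling, which moved the median of all genes by 0.28 on the log2 scale, made this 8 higher and 8 lower by adding Pcdh7, Pcdh9, Cdh10, Cdh12 and Cdh18 to the higher, where 12.9% of all genes were then higher and 12.3% lower. Cdh20, which had its highest class mean in astrocytes (998.1 CPM), was at 693.2, 736.8, 1134 and 1429 CPM (log2 ratio 1.04, 95% interval 0.91 to 1.16). Cdh19, known from glia of peripheral nerve, was at 9.72, 17.8, 33.9 and 182 CPM (3.67, 3.02 to 4.31), with P21 far above the rest. Cdh22 was at 51.8, 32.7, 51.6 and 148.8 CPM, and Cdh10 at 443.8, 539.7, 742.6 and 737.4 CPM.

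Cdh13 was at 476.2, 393.1, 336.2 and 59 CPM in astrocytes (log2 ratio -2.91, 95% interval -3.21 to -2.61), Cdh4 at 288.3, 220.8, 139.5 and 47.4 CPM and Cdh8 at 354.1, 311.9, 176.6 and 68.3 CPM. All 3 had higher levels in neurons and were lowest at P21 in astrocytes. The summed neuron markers Rbfox3, Snap25 and Syt1 stood at 306.6, 337.7, 341.1 and 364.1 CPM in astrocytes, and at 1728 CPM at E19 and 2843 CPM at P21 in excitatory and 2080 and 3542 CPM in inhibitory neurons. The part of free neuronal RNA in these astrocyte values was not tested. In fibrous astrocytes alone Cdh8 reached 635.1, 775.5, 390.5 and 149.9 CPM. Cdh3 (P-cadherin) went from 26 UMIs at E19, 25 of them in fibrous astrocytes, to 0 at P21, at least 15.2-fold lower when the P21 library is set at 3 UMIs.

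Oligodendrocyte precursors, committed cells and myelinating cells carried different amounts of several members, described here without a test. Myelinating oligodendrocytes had at least 10 nuclei only at P21 (187 nuclei, against 1 at P8), so the lineage total is not the same mix at each stage. From P4 to P21 it held 4 members at least 2-fold higher (Cdh10, Cdh19, Cdh20 and Pcdh9) and 12 lower of 23, where 12.4% of all genes were higher and 26.9% lower. With subtypes present at both stages weighted alike, this became 2 higher (Cdh19 and Cdh20) and 0 lower, where 8.68% of all genes were then higher and 15.6% lower.

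Pcdh9 was at 4559, 4886, 5441 and 5306 CPM in precursors, at 4989, 3245 and 10910 CPM in committed cells from P4 on and at 29910 CPM in myelinating cells. For Pcdh15 precursors were the highest: they were at 4895, 4387, 5128 and 4792 CPM, committed cells at 1222, 1313 and 339.7 CPM from P4 on, and myelinating cells at 403.2 CPM. Pcdh11x was at 1820, 1736, 1881 and 1018 CPM in precursors. The dividing cells, which carry the precursor marker Pdgfra, had Pcdh15 at 1282, 1916, 3360 and 4310 CPM.

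Cdh19 was at 0, 0, 1.95 and 23.4 CPM in precursors, 0, 0 and 96.8 CPM in committed cells and 645.7 CPM in myelinating cells. In the whole lineage it went from 0 UMIs at P4 to 1066 at P21, at least 34.3-fold higher when the P4 library is set at 3 UMIs. Cdh13 was at 1034 to 1292 CPM in precursors, 2359, 2498 and 1033 CPM in committed cells and 68.9 CPM in myelinating cells. Cdh10 was at 386.4 to 566.6 CPM in precursors and 1009 CPM in myelinating cells, and Cdh20 was highest in committed cells (661.7, 851.8 and 1898 CPM). Vascular leptomeningeal cells held 1 member at least 2-fold higher from P4 to P21 (Cdh19) and 3 lower (Cdh3, Cdh13 and Pcdh17), where 4.21% of all genes were higher and 11.9% lower. The median-of-ratios scaling made this 2 higher and 1 lower, where 7.35% of all genes were then higher and 7.64% lower, and with 20 CPM added in place of 5 it was 0 and 0. That scaling moved the median of all genes by 0.24 in this class and by 0.48 in the oligodendrocyte lineage.

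**Figure D5:**
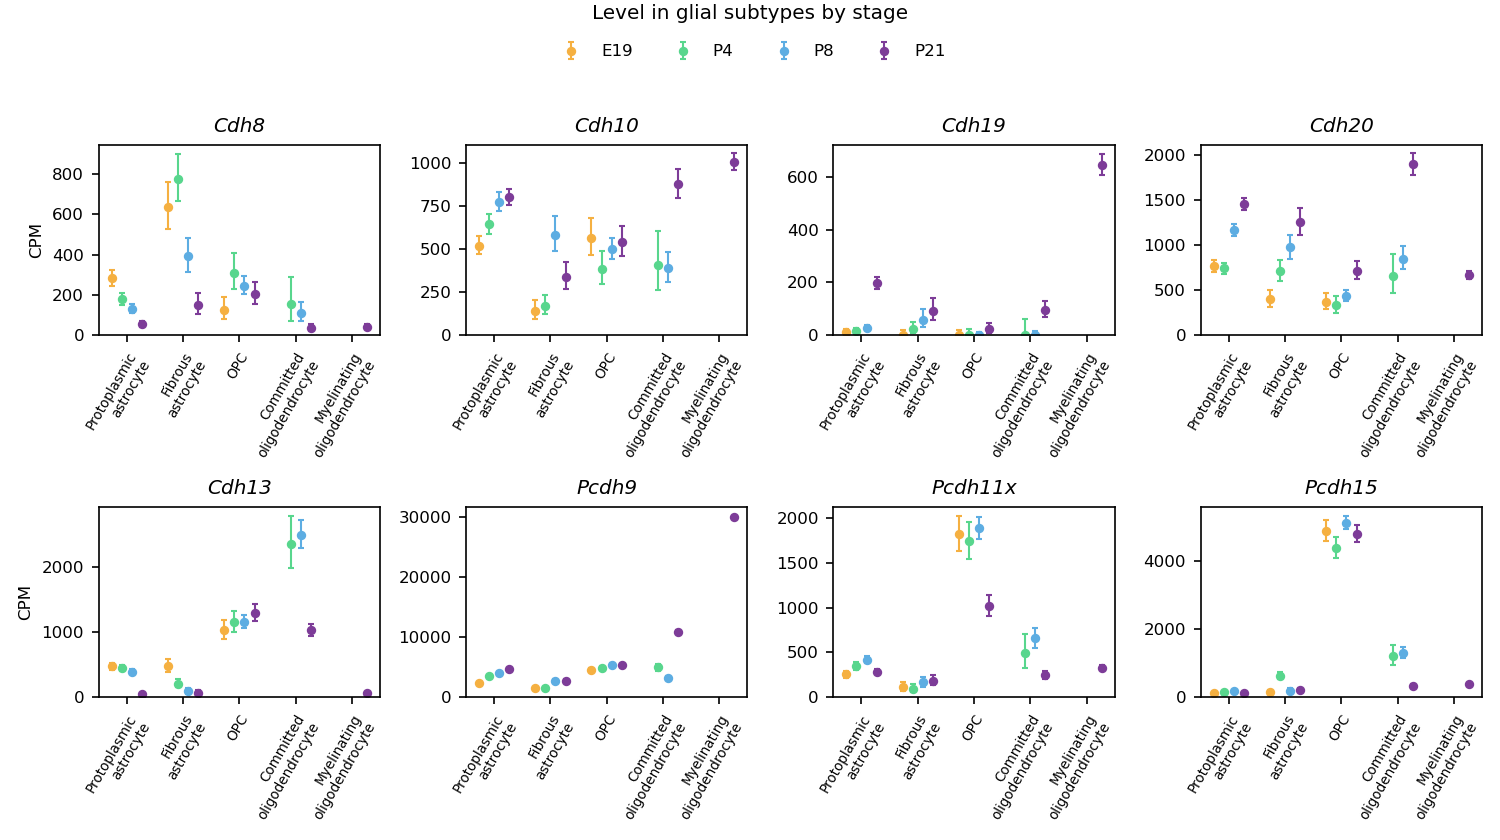
CPM by stage, with 95% exact Poisson bars, of 8 members in 5 glial subtypes (2 astrocyte and 3 oligodendrocyte-lineage subtypes, libraries with at least 10 nuclei). Cdh20 is highest at P21 in both astrocyte subtypes, Cdh19 and Pcdh9 peak in myelinating oligodendrocytes at 645.7 and 29910 CPM, and Pcdh15 is highest in precursors.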

How the data were processed

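Nuclei from 4 pooled superior colliculus libraries, isolated over a sucrose cushion, were sequenced with 10x 3' chemistry. Per the labels' protocols, the authors made the deposited UMI counts with Cell Ranger 3.0.2 on a pre-mRNA version of mm10, so intronic reads entered the counts; not given in the sources used here were filters on nuclei, any removal of doublets, the annotation release and the use of strand. The deposited table of nuclei also gives the percent of UMIs from mitochondrial and ribosomal genes, which was not used in any test, and the stage, class and subtype of each nucleus, which was. No nucleus was removed and no doublet caller was run; 15 nuclei held over 50000 UMIs (at most 244143).

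UMIs were summed per library and class or subtype and divided by that sum's total to give CPM. Class levels used libraries with at least 20 nuclei, subtype levels at least 10 and stage comparisons at least 50; log2 ratios had 5 CPM added to each value, and members counted needed 20 CPM in the higher group. Excitatory and inhibitory sums were tested with edgeR 4.0.16 (R 4.3.3) with library as a block and called at an adjusted p of 0.05; DESeq2 1.42.0 was an alternative. Intervals were exact Poisson at 95%, and a count of 0 was set at 3 UMIs per library and class for folds. Scripts were tested on simulated data. Of the deposited gene identifiers, 31011 were found in GENCODE M21 (GRCm38), which gave positions and sequences.

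A member was described by library when it reached 100 CPM in a class of at least 50 nuclei, passed 2-fold between E19 or P4 and P21, was called at 2-fold between neuron classes, or had a subtype 4-fold over the median; of the partner lists, the called genes and those with the largest stage ratios are named. The members, the lists and these rules were chosen with earlier results of these data known.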

Additional observations from a re-analysis of the deposited data

Results flagged for a closer look

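Cdh22, a type II cadherin that in neurons was higher in the inhibitory class, took opposite courses in the class totals of astrocytes and the oligodendrocyte lineage. In astrocytes it was at 51.8, 32.7, 51.6 and 148.8 CPM at E19, P4, P8 and P21, a log2 ratio of 2.03 from P4 to P21 and of 1.44 from P8 to P21. In the oligodendrocyte lineage it was at 81.4, 30.8, 36.8 and 8.5 CPM, from 16, 7, 27 and 20 UMIs, with log2 ratios of -1.41 and -1.63. It was singled out because the 2 classes lay on opposite sides of 0; the difference between them was not tested, since each stage is 1 library. In oligodendrocyte precursors alone Cdh22 was at 83.9, 35.7, 42.9 and 40.1 CPM, so that P21 was not below P4 there. The lineage at P21 included 187 myelinating nuclei, against 1 at P8. With the subtypes that had at least 10 nuclei at both stages weighted alike, the lineage's Cdh22 log2 ratio from P4 to P21 was -0.26 in place of -1.41. The part of the changing mix of subtypes in the lineage value was not tested further.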

How the results depend on the processing

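Of the members called between neuron classes (9), 14 were called with no filter on low counts, 3 without the library as a block (fit with no replicate block), 7 with DESeq2, 9 with its size factors in edgeR, 10 with transmitter-gene classes, and 7 to 10 when each library was left out in turn; at 2-fold the last range was 4 to 5. Without the block, Cdh12 (adjusted p = 0.314, edgeR), Pcdh10 (0.782), Pcdh20 (0.0574), Cdh24 (0.999), Pcdh18 (0.999) and Pcdh11x (0.79) lost their calls. Members with a subtype 4-fold over the median (9) became 5 against the median of their own class and 8 to 10 with a library left out. The leading class was kept for 21 to 28 of 30 members with a library left out. For members past 2-fold between stages, a pseudocount of 20 CPM gave 1 in place of 3 (excitatory, E19 to P21), 0 in place of 1 (excitatory, P8 to P21) and 0 in place of 4 (vascular leptomeningeal). No floor gave 5 in place of 3 (excitatory, E19 to P21), and median-of-ratios scaling 2 in place of 1 (excitatory, P8 to P21). Subtypes weighted alike gave 5 in place of 3 (excitatory, E19 to P21), 2 in place of 1 (inhibitory, P8 to P21) and 2 in place of 16 (oligodendrocyte lineage); this was not run for vascular leptomeningeal cells, which form 1 subtype. Leaving out nuclei over 50000 UMIs, chosen after seeing the data, gave the same counts from E19 or P4 to P21 (3, 6, 11, 16 and 4). Among the single members' tested values followed over the settings, 17 lost a call and 8 gained one (Cdh18, Cdh13, Cdh2 and Cdh4, each under some settings only). Members not followed in that way also gained calls: Cdh20 with no filter on low counts and Cdh19 with transmitter-gene classes. Without the E19 library Cdh8 and Cdh3 did so, and without P21 Pcdh8. Of 263 stage ratios recomputed for members past 2-fold, 42 fell under 2-fold and 59 moved by more than counting error. No value of either kind reversed. Depth limits the rare classes: endothelial cells and microglia had 12 to 33 nuclei per library.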
